A study of Mus musculus with 5 samples.

Results

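The 10 genes described here store, import, export and sense iron in the cell: Fth1, Ftl1, Ncoa4, Tfrc, Slc11a2, Slc40a1, Hmox1, Ireb2, Aco1 and Fbxl5. They were chosen by gene name from the 54699 genes of the deposited table, and they were proposed with their FPKM values in view. Their levels and differences are therefore descriptions and carry no test. All 10 were found, each in 1 row, and all 10 reached an FPKM of 1 (a read-based level corrected for gene length and sequencing depth) in at least 1 library.

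B16F10, a pigmented melanoma line of the mouse, was infected with lentivirus, cultured in medium with serum and sequenced in 5 RNA libraries. Cells with forced expression of mouse Myod1, the muscle transcription factor, and cells with forced expression of mouse Pparg, the nuclear receptor of fat cells, were harvested on day 8. Cells carrying the empty expression vector were their shared control, labelled wild type and also taken on day 8. Cells infected with a short hairpin RNA against Setdb1 (shSetdb1), a histone H3K9 methyltransferase, were harvested on day 7 beside cells with the empty knockdown vector (shCtrl), again labelled wild type. The promoter of the expression vector, the hairpin sequence and whether clones or pools were grown are not given in the sources used here. Each group had 1 library, so differences could not be set against replicate spread and carry no p-value.

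Iron enters most cells when the transferrin receptor takes up iron-loaded transferrin, and the transporter Slc11a2 (DMT1) moves it out of the endosome. Surplus iron is held in ferritin, a shell of heavy (Fth1) and light (Ftl1) chains, or leaves through ferroportin (Slc40a1). The iron regulatory proteins Aco1 (IRP1) and Ireb2 (IRP2) bind a short stem-loop, the iron responsive element, when iron is scarce. Binding before the coding region blocks translation of ferritin and ferroportin mRNA, while binding after it protects Tfrc mRNA from decay. Dividing cells draw on iron for ribonucleotide reductase, the enzyme that makes DNA precursors.

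The stem-loops of the members are printed because they are what the sensing genes bind. In GENCODE M21 transcripts (GRCm38) the search took a C, 5 bases, the loop CAGTGN and 5 bases that pair with the first 5, G-T pairs allowed, on the transcript strand. A match lay in the untranslated regions of 4 of the 10 members: before the coding region of Fth1, Ftl1 and Slc40a1, and 4 times after the coding region of Tfrc. Among all genes with such a region, 0.134% of 20840 had a match before and 0.602% of 20920 after the coding region. The windows below hold 30 bases, 5′ to 3′ on the transcript strand, with the loop in capitals.
Fth1, chr19:9982732-9982761, + strand, 5′ UTR: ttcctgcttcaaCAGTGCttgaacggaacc
Ftl1, chr7:45459778-45459807, - strand, 5′ UTR: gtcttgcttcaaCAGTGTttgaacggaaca
Slc40a1, chr1:45925464-45925493, - strand, 5′ UTR: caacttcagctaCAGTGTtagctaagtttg
Tfrc, chr16:32631219-32631248, + strand, 3′ UTR: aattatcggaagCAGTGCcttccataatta
Tfrc, chr16:32631598-32631627, + strand, 3′ UTR: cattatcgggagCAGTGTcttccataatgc
Tfrc, chr16:32631663-32631692, + strand, 3′ UTR: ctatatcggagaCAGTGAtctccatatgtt
Tfrc, chr16:32631710-32631739, + strand, 3′ UTR: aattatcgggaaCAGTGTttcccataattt

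The heavy and light chain elements share the stem bases next to the loop, and the Tfrc elements resemble each other in the bases before the loop. No other member matched, which says only that these letters were not found in its M21 transcripts. A match is a description of the sequence, and RNA levels do not show translation, the step that the ferritin elements are known for.

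**Figure D1:**
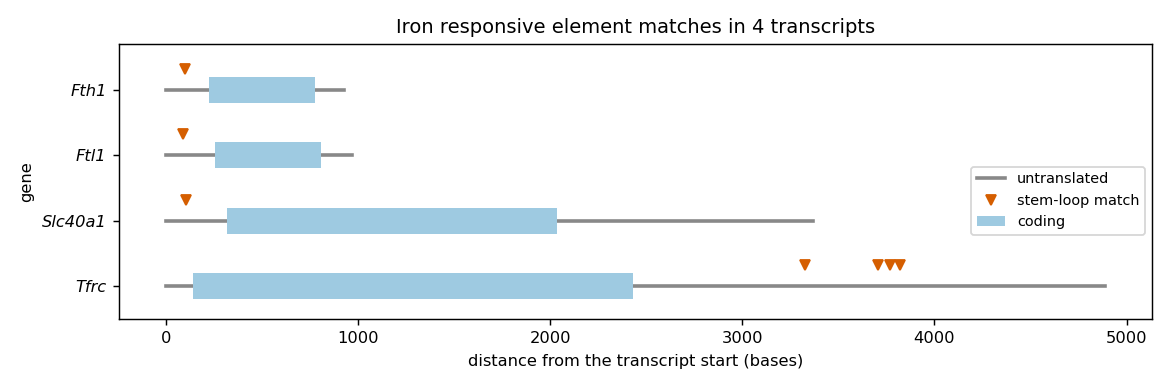
The map shows 4 mouse transcripts to scale, with distance from the transcript start in bases on the x axis, untranslated parts as lines, coding parts as boxes and stem-loop matches as triangles. The match of Fth1, Ftl1 and Slc40a1 lies before the coding box, its loop at base 99, 90 and 102, while the 4 of Tfrc lie after it, between base 3327 and base 3818.

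The libraries held 16214802 to 18300670 reads assigned to genes, and 12842 genes reached an FPKM of 1 in at least 1 library and were compared. Myod1 reached 260 FPKM and Pparg 44.4 FPKM in their own libraries with 0 reads in the other 4, and Setdb1 stood at 0.867 FPKM in the knockdown library against 9.82 in its control. All 8 melanocyte markers (Mitf, Sox10, Pmel, Mlana, Tyr, Tyrp1, Dct, Slc45a2) were above 1 FPKM in all 5 libraries, summing to 2308 to 9098 FPKM. They were lower as a group with forced expression: all 8 lay below the control with Myod1 expression (5 past 2-fold, median -1.29, sum 3306 against 7816 FPKM) and with Pparg expression (6 past 2-fold, median -1.33, sum 2308). With Setdb1 knockdown 2 were 2-fold lower and none higher (median -0.21, sum 9098 against 8542). Of all compared genes 7.55% were 2-fold lower with Myod1 expression and 2.3% with Pparg expression. With Setdb1 knockdown 10.3% were lower and 9.34% higher. The part of the marker differences in the member differences was not tested. The 8 skeletal muscle markers summed to 21963 FPKM with Myod1 expression and at most 15.0 elsewhere, and the 8 adipocyte markers to 338 FPKM with Pparg expression and at most 2.77 elsewhere. Intervals below are 95% Wilson intervals from the recovered reads and cover counting error only. In bulk RNA, fewer cells of a type and less RNA per cell cannot be told apart.

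Markers of cells known for heavy iron traffic were low. Of the 8 macrophage and other leukocyte markers, Tyrobp and Cd3e were at 0 in all 5 libraries and Ptprc did not exceed 0.00590 FPKM. Their sum ran from 2.60 FPKM with Pparg expression to 20.9 with Setdb1 knockdown, most of it Cd68, a lysosomal protein also made outside macrophages. Cd68 stood at 18.7 FPKM with Setdb1 knockdown, 12.2 in the empty expression vector control and 1.87 to 4.30 in the other 3 libraries. The part of these cells in the levels of Hmox1 or Slc40a1 was not tested. Of the 7 erythroid markers, Hbb-bt and Hbb-bs were at 0 in all 5 libraries, and the sum ran from 0.791 to 8.34 FPKM. No library had more than 1 of the 7 at 1 FPKM or above. The 6 fibroblast markers summed to 2.73 to 10.9 FPKM, with Dcn, Lum and Thy1 at 0 throughout.

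A gene was counted as 2-fold higher or lower when log2(FPKM + 1) differed by at least 1 between a library and its control, a scale that understates changes of low genes. With Myod1 expression 1 member was 2-fold higher (Slc40a1) and 2 were 2-fold lower (Ftl1 and Hmox1). In that comparison 14.0% of all compared genes were higher and 7.55% lower, so 65.0% of its calls were higher. Scaled by the column sum of FPKM that split was 39.4%, and scaled to the 75th percentile 52.7%, because the median of all genes shifted by -0.28 and -0.12. With Pparg expression no member passed the limit in either direction, where 4.22% of all genes were higher and 2.3% lower. With Setdb1 knockdown 1 member was 2-fold higher (Hmox1) and 2 were 2-fold lower (Tfrc and Ireb2), against 9.34% of all genes higher and 10.3% lower. Counts of 1 or 2 among 10 members lie little more than 1 gene from these shares, and nothing is read from them.

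The 2 empty vector controls, which differ in vector and in day, were compared with each other as the background that the design offers. No member reached the limit on the log2(FPKM + 1) scale between them, and of all genes 1.23% were higher in the knockdown vector control and 1.44% lower. Among protein-coding genes, which all members are, the split was less even, with 22 higher and 129 lower. Some members still differed by far more than counting error. Hmox1 in the empty knockdown vector library was 0.537 times its level in the empty expression vector library, Slc11a2 was 0.603 times, Ftl1 was 1.46 times and Slc40a1 was 2.47 times. The last, on low levels, came to 0.84 on that scale and to 1.23 with a pseudocount of 0.1, past the limit. Such differences between controls bound how much of a smaller difference elsewhere can be read. The median member difference was -0.34 with Myod1 expression, -0.02 with Pparg expression, -0.13 with Setdb1 knockdown and 0.18 between the controls. The medians of all compared genes lay between -0.02 and 0.02. The Myod1 and Pparg comparisons share their control library.

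**Figure D2:**
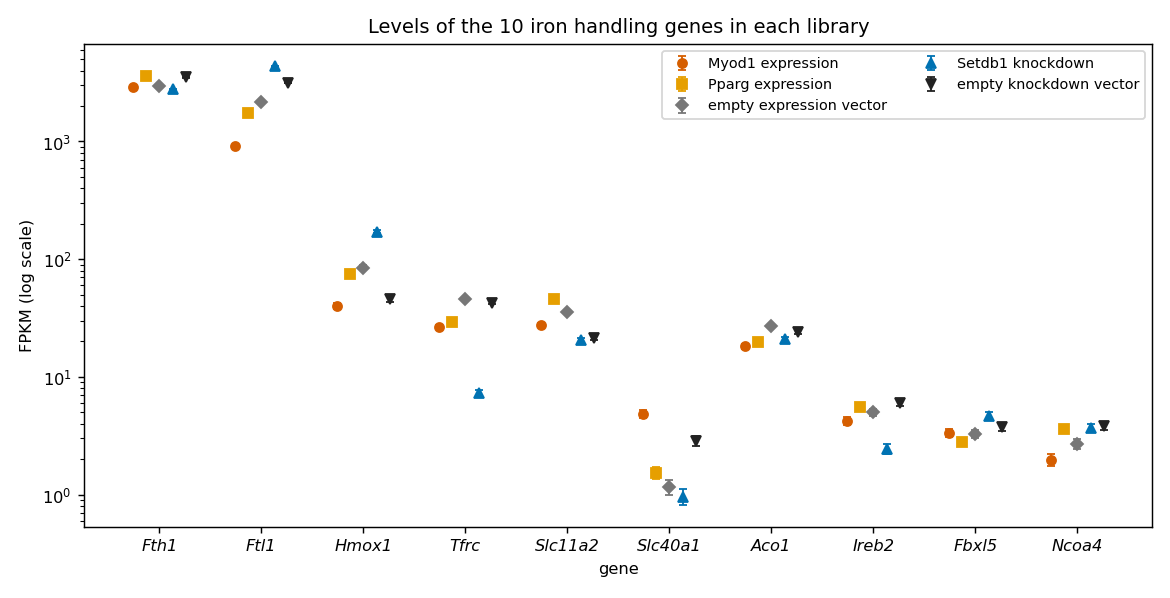
The plot gives the FPKM of each member on a log y axis, with 1 point per library and bars for the 95% Wilson interval of counting error. Fth1 lies between 2777 and 3601 in all 5 libraries, while Tfrc drops to 7.27 with Setdb1 knockdown and Slc40a1 peaks at 4.83 with Myod1 expression.

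Ferritin was by far the most abundant product of the set. Fth1 (ENSMUSG00000024661, chromosome 19, 9982703 to 9985092), the heavy chain with the ferroxidase centre that oxidises iron, was the steadiest member. It measured 3601 FPKM with Pparg expression, 3508 in the empty knockdown vector control, 2972 in the empty expression vector control, 2883 with Myod1 expression and 2777 with Setdb1 knockdown. The highest level was 1.30 times the lowest, and Fth1 ranked between 3 and 11 among the compared genes of each library. Against its own control Fth1 was 0.970 times with Myod1 expression (interval 0.957 to 0.983), 1.21 times with Pparg expression (1.20 to 1.23) and 0.792 times with Setdb1 knockdown (0.782 to 0.802). The controls differed by 1.18 times, so these ratios are of the same order as the difference between the controls.

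Ftl1 (ENSMUSG00000050708, chromosome 7, 45457944 to 45459884), the light chain that helps the iron core form, did not follow the heavy chain. Its level was 4357 FPKM with Setdb1 knockdown, 3135 in the empty knockdown vector control, 2151 in the empty expression vector control, 1745 with Pparg expression and 922 with Myod1 expression. The order put Setdb1 knockdown at the top and Myod1 expression at the bottom, 4.72 times apart, with no overlap of counting intervals between any neighbours. With Myod1 expression Ftl1 was at 0.429 times its control (0.422 to 0.436), a log2 difference of -1.22, and at 0.294 times the other control. With Pparg expression it was at 0.811 times its control (0.801 to 0.822). With Setdb1 knockdown it was at 1.39 times its control (1.38 to 1.40), which is within 2-fold, and at 2.03 times the other control, just past the limit. Removing trends with GC content and length took the difference from its own control from 0.47 to -0.04 on the log2 scale.

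The ratio of light to heavy chain within a library does not depend on how libraries were scaled. Ftl1 over Fth1 was 0.320 with Myod1 expression (0.314 to 0.325), 0.484 with Pparg expression (0.479 to 0.490) and 0.724 in their shared control (0.714 to 0.733). It was 1.57 with Setdb1 knockdown (1.55 to 1.59) and 0.894 in its control (0.884 to 0.904). The light chain thus exceeded the heavy chain per length in the Setdb1 knockdown library alone among the 5, and both forced-expression libraries lay below both controls. The ratio still depends on gene-specific trends: without those of GC content and length the Setdb1 differences were -0.04 for Ftl1 and -0.46 for Fth1, closer to each other than 0.47 and -0.34. Together the ferritin chains took 0.321% of all reads with Myod1 expression, 0.598% with Pparg expression and 0.532% in their control. They took 0.878% with Setdb1 knockdown and 0.746% in its control.

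Ftl1 has near copies that also carried reads. M21 holds 7 genes with transcripts at least 90% identical to Ftl1 over at least 200 bases, of which Ftl1-ps1 was 99.6% identical over 910 bases. How reads shared between copies were assigned is not given in the sources used here. Ftl1-ps1 had 23.6 FPKM with Myod1 expression, 40.6 with Pparg expression, 35.8 in the empty expression vector control, 132 with Setdb1 knockdown and 77.7 in the empty knockdown vector control. Its highest and lowest libraries were those of Ftl1. Reads on the 7 copies came to 1.74% to 3.26% of those on Ftl1. That share covers assigned reads alone, and the part of shared or dropped reads in the Ftl1 differences was not tested. Of the 15 other rows whose symbol starts with Fth or Ftl or whose description names a ferritin heavy or light chain, 11 had 0 reads in all 5 libraries.

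Ncoa4 (ENSMUSG00000056234, chromosome 14, 32159865 to 32179855), the receptor that delivers ferritin to the lysosome for iron release, was a low gene. It stood at 3.81 FPKM in the empty knockdown vector control, 3.65 with Setdb1 knockdown, 3.59 with Pparg expression, 2.69 in the empty expression vector control and 1.97 with Myod1 expression. The first 3 have overlapping counting intervals, and no difference from a control reached 2-fold. Myod1 expression gave 0.733 times the control (0.631 to 0.852) and Pparg expression 1.34 times (1.18 to 1.51). Neither direction held throughout: the Myod1 log2 difference went from -0.31 to 0.04 without GC and length trends, and the Pparg one from 0.32 to -0.07 against the other control. A copy, Gm6768, was 99.9% identical over 1878 bases and carried 20.3% to 26.9% as many reads as Ncoa4, so the level of Ncoa4 is uncertain. The gene length of 9365 bases covers all annotated exons, which lowers the FPKM of a gene with a shorter main transcript.

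Tfrc (ENSMUSG00000022797, chromosome 16, 32608920 to 32632794), the transferrin receptor, showed the largest difference of any member. Its level was 45.5 FPKM in the empty expression vector control, 42.5 in the empty knockdown vector control, 29.0 with Pparg expression, 26.6 with Myod1 expression and 7.27 with Setdb1 knockdown. The controls were close to each other, at 0.935 times (0.897 to 0.975), and all 3 treated libraries lay below both. With Setdb1 knockdown 832 reads stood against 4400, which is 0.171 times the control (0.159 to 0.184) and 5.85-fold lower. The log2 difference of -2.40 was exceeded in the downward direction by 73 of the 12842 genes, and against the other control it was -2.49. Without GC and length trends it was -1.85. With Myod1 expression Tfrc was at 0.584 times its control (0.556 to 0.613) and with Pparg expression at 0.638 times (0.611 to 0.667), both within 2-fold. Scaled by the column sum, the Myod1 difference became -1.13, past the limit.

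Set against the light chain in the same library, the receptor was lowest with Setdb1 knockdown. Tfrc over Ftl1 was 0.00167 with Setdb1 knockdown (0.00156 to 0.00179) and 0.0136 in its control (0.0132 to 0.0140). It was 0.0288 with Myod1 expression (0.0276 to 0.0300), 0.0166 with Pparg expression (0.0161 to 0.0172) and 0.0212 in their control (0.0205 to 0.0218). The Myod1 expression library had the highest ratio, since Ftl1 was lower there by more than Tfrc was. Since the Setdb1 differences of both genes shrink without GC and length trends (Tfrc to -1.85, Ftl1 from 0.47 to -0.04), so does the contrast of this ratio with its control. These are ratios of RNA levels per length and not of protein.

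**Figure D3:**
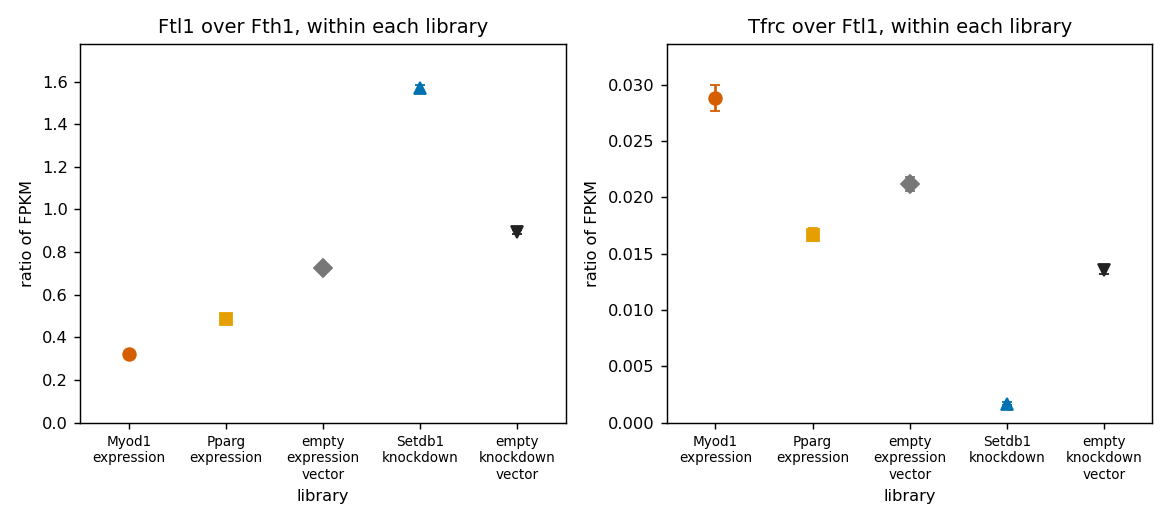
The panels plot, for each library on the x axis, the ratio of FPKM of Ftl1 over Fth1 (left) and Tfrc over Ftl1 (right), with 95% Wilson intervals of counting error as bars. On the left Setdb1 knockdown stands at 1.57, above the other libraries at 0.320 to 0.894, and on the right it stands at 0.00167, below the others at 0.0136 to 0.0288.

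Slc11a2 (ENSMUSG00000023030, chromosome 15, 100387898 to 100425072), which carries ferrous iron across membranes, was within 2-fold of the control in all 3 comparisons. It measured 45.5 FPKM with Pparg expression, 35.5 in the empty expression vector control, 27.4 with Myod1 expression, 21.4 in the empty knockdown vector control and 20.6 with Setdb1 knockdown. The last 2 have overlapping counting intervals. Pparg expression gave 1.28 times its control (1.23 to 1.33), Myod1 expression 0.772 times (0.735 to 0.811) and Setdb1 knockdown 0.959 times (0.905 to 1.02). Since the controls themselves differed by 0.603 times, Pparg expression was 2.12 times the other control and Myod1 expression 1.28 times it. Within libraries, Slc11a2 over Tfrc was 2.83 with Setdb1 knockdown and 0.504 to 1.57 in the others.

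Slc40a1 (ENSMUSG00000025993, chromosome 1, 45908068 to 45926523), ferroportin, the iron exporter, had the lowest FPKM of the members in 4 of the 5 libraries, the Myod1 expression library being the exception. It had 4.83 FPKM with Myod1 expression, 2.84 in the empty knockdown vector control, 1.52 with Pparg expression, 1.15 in the empty expression vector control and 0.955 with Setdb1 knockdown. Reads ranged from 159 to 684, and the intervals of the lowest pair overlapped. With Myod1 expression it was 4.20 times its control (3.55 to 4.97), a log2 difference of 1.44. Against the other control it was 1.70 times (1.51 to 1.92), a difference of 0.60 that does not reach the limit. With Setdb1 knockdown it was 0.336 times its control (0.281 to 0.404), a log2 difference of -0.97 that falls just short of the limit. A pseudocount of 0.1 (-1.48), the column sum (-1.04) and the 75th percentile (-1.04) took it past the limit, while without GC and length trends it was -0.48. Against the other control that ratio was 0.831 (0.669 to 1.03).

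Hmox1 (ENSMUSG00000005413, chromosome 8, 75093621 to 75100589), haem oxygenase 1, frees iron from haem and is a classic target of the stress regulator Nrf2. Its level was 171 FPKM with Setdb1 knockdown, 84.9 in the empty expression vector control, 75.5 with Pparg expression, 45.6 in the empty knockdown vector control and 40.0 with Myod1 expression. The knockdown library stood above all others. With Setdb1 knockdown Hmox1 was 3.75 times its control (3.53 to 3.98), a log2 difference of 1.88 with 154 genes further up. Against the other control it was 2.02 times (1.92 to 2.11), barely past the limit. With Myod1 expression it was 0.472 times its control (0.439 to 0.506), a difference of -1.07, but 0.878 times the other control (0.811 to 0.951). With Pparg expression it was 0.889 times its control (0.841 to 0.940) and 1.66 times the other (1.55 to 1.77), so its direction turns with the control.

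**Figure D4:**
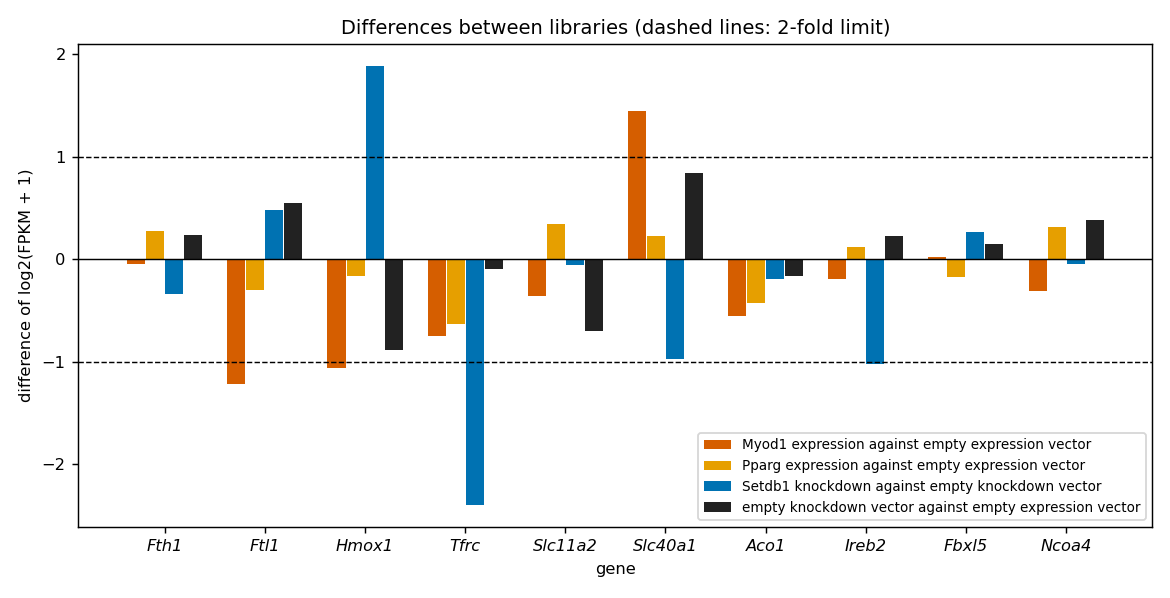
Bars give the difference of log2(FPKM + 1) for each member on the x axis, coloured by comparison, with dashed lines at the 2-fold limit of 1 and -1. Tfrc at -2.40 and Hmox1 at 1.88 with Setdb1 knockdown reach furthest, and the black bars for the 2 controls stay inside the lines.

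Of the iron sensors, Ireb2 (ENSMUSG00000032293, chromosome 9, 54863789 to 54912530), IRP2, is degraded when iron is plentiful. It stood at 5.99 FPKM in the empty knockdown vector control, 5.50 with Pparg expression, 4.99 in the empty expression vector control, 4.25 with Myod1 expression and 2.43 with Setdb1 knockdown. The intervals of Pparg expression overlapped with those of both controls, and the knockdown library lay apart below the rest. With Setdb1 knockdown Ireb2 was at 0.406 times its control (0.362 to 0.455), a log2 difference of -1.03, just past the limit. It was -0.80 against the other control and -0.38 once trends with GC content and length were removed, both short of it.

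Aco1 (ENSMUSG00000028405, chromosome 4, 40143081 to 40198338), IRP1, also serves as the cytosolic aconitase when it holds an iron-sulphur cluster. It measured 27.1 FPKM in the empty expression vector control, 24.0 in the empty knockdown vector control, 20.8 with Setdb1 knockdown, 19.9 with Pparg expression and 18.2 with Myod1 expression. All 3 treated libraries were below both controls, at 0.670 times (0.624 to 0.718), 0.735 times (0.690 to 0.784) and 0.867 times (0.811 to 0.926) their own control for Myod1, Pparg and Setdb1. None of these reached 2-fold. Aco1 over Ireb2 was 8.55 with Setdb1 knockdown and between 3.62 and 5.43 in the other libraries. Without GC and length trends the Setdb1 differences of the pair were alike, -0.37 for Aco1 and -0.38 for Ireb2, so the contrast of this ratio with its control nearly vanished.

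Fbxl5 (ENSMUSG00000039753, chromosome 5, 43744615 to 43821638) is the iron-binding ubiquitin ligase subunit that marks Ireb2 protein for degradation. Its levels were 4.68 FPKM with Setdb1 knockdown, 3.72 in the empty knockdown vector control, 3.34 with Myod1 expression, 3.27 in the empty expression vector control and 2.79 with Pparg expression. Only the top library lay clear of its neighbour in the order by counting error. With Setdb1 knockdown Fbxl5 was 1.26 times its control (1.13 to 1.40), a log2 difference of 0.27 that became 0.89 without GC and length trends. Ireb2 over Fbxl5 was 0.520 with Setdb1 knockdown (0.463 to 0.585) and 1.27 to 1.97 in the other libraries.

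Tfrc and Ftl1 had the widest range of log2 levels over the 5 libraries, and the genes with the most similar profiles were looked up. Likeness was the Euclidean distance of log2(FPKM + 1) profiles centred on their mean over 5 libraries, a small number of points that share libraries and controls. Nearest to Tfrc were Nrm (distance 0.27), Mxd3 (0.30), Tcf12 (0.34), Gm4202 (0.35) and E2f1 (0.36). Nearest to Ftl1 were Gm19253 (0.29), Gm27326 (0.35), E2f5 (0.37), Akr1c13 (0.38) and Snord83b (0.42).

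Related gene lists put the members beside the rest of iron metabolism. The shares over all genes beside each count are those of the same comparison. Of the 9 compared genes for iron uptake and reduction, none was 2-fold higher and 2 were lower with Myod1 expression (14.0% and 7.55% of all genes). With Pparg expression 1 was higher (4.22% of all genes), and Setdb1 knockdown had 1 higher and 3 lower (9.34% and 10.3%). The medians were -0.63, -0.15 and 0.19, the last of which was -0.08 against the other control. With Myod1 expression 4 were lower under a pseudocount of 0.1 or the column sum. With Setdb1 knockdown 1 was lower without GC and length trends, and 3 were higher with a pseudocount of 0.1. Lcn2, which binds iron-laden siderophores, had 178 reads with Pparg expression and 0 in the control, at least 50.6-fold higher against a floor of 3 reads. It passed the filter only through that library, so its count as higher was favoured by the filter itself. Cd44, a surface receptor that also takes up iron bound to hyaluronate, was lower with Myod1 expression (-1.35) and Setdb1 knockdown (-1.97). Steap2, a metalloreductase, was lower with Setdb1 knockdown (-1.40, or -0.63 without GC and length trends). Mcoln1, which releases iron from the lysosome, was higher there (1.40, or 0.97 against the other control).

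Of the 14 genes for iron export and systemic control, 3 were 2-fold higher with Myod1 expression (14.0% of all genes) and 2 with Pparg expression (4.22%), and Setdb1 knockdown had 1 higher and 2 lower (9.34% and 10.3%). The Myod1 and Setdb1 counts are near those shares. Their medians were -0.20, 0.06 and 0.06, and the first became 0.11 without GC and length trends. Hfe2, haemojuvelin, the bone morphogenetic protein co-receptor that muscle makes, reached 255 FPKM with Myod1 expression from 0 reads in the control, at least 2820-fold higher. It passed the filter only through that library, so the filter favoured its count as higher. Cp, ceruloplasmin, the copper ferroxidase that works with ferroportin, stood at 61.6 FPKM with Pparg expression against 5.84 in the control, 10.6 times (9.87 to 11.3). With Setdb1 knockdown Cp was at 0.272 times its control (0.234 to 0.315), and the log2 difference of -1.32 shrank to -0.70 without the GC and length trends. Id1, a target of bone morphogenetic protein signalling, was higher with Myod1 expression (3.15) and with Pparg expression (1.10, or 0.92 against the other control), on 15 reads in the control. Bmpr1a, a receptor of that pathway, was lower with Setdb1 knockdown (-1.48, or -0.96 without the trends).

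The mitochondrial iron and iron-sulphur assembly list had the highest median of the Myod1 comparison among these lists. Of 19 compared genes, 7 were 2-fold higher and none lower with Myod1 expression, against 14.0% and 7.55% of all genes. The median of 0.78 lay between 0.40 and 0.81 over the scaling, control, pseudocount and trend alternatives. Scaled by the column sum the counts were 4 higher and 1 lower. Isca1 (1.68), Iscu (1.66), Bola3 (1.63) and Iba57 (1.63), which build or hand on iron-sulphur clusters, were the furthest up. With Pparg expression none passed the limit in either direction (median 0.24), where 4.22% of all genes were higher and 2.3% lower. Against the other control 1 was lower (median 0.05), and a pseudocount of 0.1 or the column sum gave 2 higher. With Setdb1 knockdown 2 were higher and none lower (0.22), against 9.34% and 10.3% of all genes. That count fell to 1 higher under the column sum, the 75th percentile, the other control (median 0.48) and without trends. The 9 cytosolic assembly genes had none past the limit in any of the 3 comparisons, though without trends 1 was higher with Myod1 expression. Of all genes 14.0% were higher and 7.55% lower with Myod1 expression, 4.22% and 2.3% with Pparg expression, and 9.34% and 10.3% with Setdb1 knockdown. With 9 genes nothing is read from the absence of calls. The medians of this list were 0.34, 0.09 and 0.38. The first of these turned to -0.04 when scaled by the column sum and the second to -0.06 against the other control.

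Among 10 genes for iron chaperones, storage and ferritin turnover, 1 was higher and 1 lower with Myod1 expression, near the 14.0% and 7.55% of all genes. None passed the limit with Pparg expression (4.22% and 2.3% of all genes) or with Setdb1 knockdown (9.34% and 10.3%). In the Setdb1 comparison 1 was higher and 1 lower against the other control, and 1 was higher without trends. The medians were 0.11, -0.14 and -0.04. The first turned to between -0.27 and -0.05 under the column sum, the 75th percentile and without trends, and the third to 0.20 both against the other control and without trends. Glrx3, a cytosolic iron-sulphur glutaredoxin, was the higher gene (1.11, or 0.56 against the other control). Tax1bp1, an autophagy receptor that acts with Ncoa4, was the lower one (-1.26, or -0.68 against the other control).

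Among 16 genes for haem synthesis, transport and breakdown, 3 were higher and 1 lower with Myod1 expression, none passed with Pparg expression, and 1 was lower with Setdb1 knockdown. These counts are near the shares of all genes that were higher and lower. Those shares were 14.0% and 7.55% with Myod1 expression, 4.22% and 2.3% with Pparg expression, and 9.34% and 10.3% with Setdb1 knockdown. The medians were -0.04, 0.18 and 0.08. Under the column sum the Myod1 counts turned to 1 higher and 3 lower, with a median of -0.41, and against the other control the median was 0.06. Fech, which inserts iron into haem, was 3.39 times its control with Myod1 expression (3.17 to 3.63), and Tmem14c, a transporter of haem precursors, was 2.27 times (2.12 to 2.42, or a log2 difference of 0.71 without trends). Blvrb, which acts after haem oxygenase, was 0.216 times (0.180 to 0.258). Flvcr1, a haem exporter, was 0.237 times its control with Setdb1 knockdown (0.192 to 0.293).

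Hmox1 and the ferritin chains are among the known targets of Nrf2 and Bach1, so a list of other such genes and their regulators was counted. Of 20 genes, none was 2-fold higher and 6 were lower with Myod1 expression (median -0.44), and 1 was lower with Pparg expression (-0.33, where 2.3% of all genes were lower). Setdb1 knockdown had 3 higher and 2 lower (0.25), near the 9.34% and 10.3% of all genes, while the Myod1 counts stand beside 14.0% higher and 7.55% lower. The Myod1 count was 0 higher and 5 to 9 lower over the alternatives. G6pdx (-2.11) and Tkt (-1.65), enzymes of the pentose phosphate pathway, and Slc7a11 (-1.95), the cystine importer, were lower with Myod1 expression. Slc7a11 was lower with Pparg expression too (-1.42, or -0.91 against the other control). Txnrd1, thioredoxin reductase, was lower with Setdb1 knockdown (-1.72), where Hmox1 was higher. In that comparison 12 genes of the list lay above the control and 8 below.

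Of 21 proteins that use iron, oxygen-sensing hydroxylases and their targets included, 3 were higher and 3 lower with Myod1 expression (median -0.11), against 14.0% and 7.55% of all genes. Pparg expression had 1 higher and 1 lower (-0.06), near the 4.22% and 2.3% of all genes, and Setdb1 knockdown had 1 higher and 8 lower (-0.62), against 9.34% and 10.3% of all genes. The medians of the first pair of comparisons turned sign under at least 1 alternative. Mb, myoglobin, the haem protein of muscle, had 228 FPKM with Myod1 expression from 0 reads in the control, at least 1854-fold higher. Like Hfe2, Mb passed the filter only through that library. Rrm1 and Rrm2, the large and the iron-bearing small subunit of ribonucleotide reductase, were at 0.257 times (0.247 to 0.267) and 0.141 times (0.133 to 0.149) their control with Setdb1 knockdown, the library in which Tfrc was lowest. Rrm1 was also lower with Myod1 expression (-1.17, or -0.75 without the trends). Their relation to the level of Tfrc was not tested. Egln3, an iron-dependent prolyl hydroxylase, was 6.70 times its control with Myod1 expression (5.71 to 7.86), at 26.7 against 3.98 FPKM. It differed by -1.43 on the log2 scale between the controls, with 0.854 FPKM in the other control, further below the Myod1 level.

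**Figure D5:**
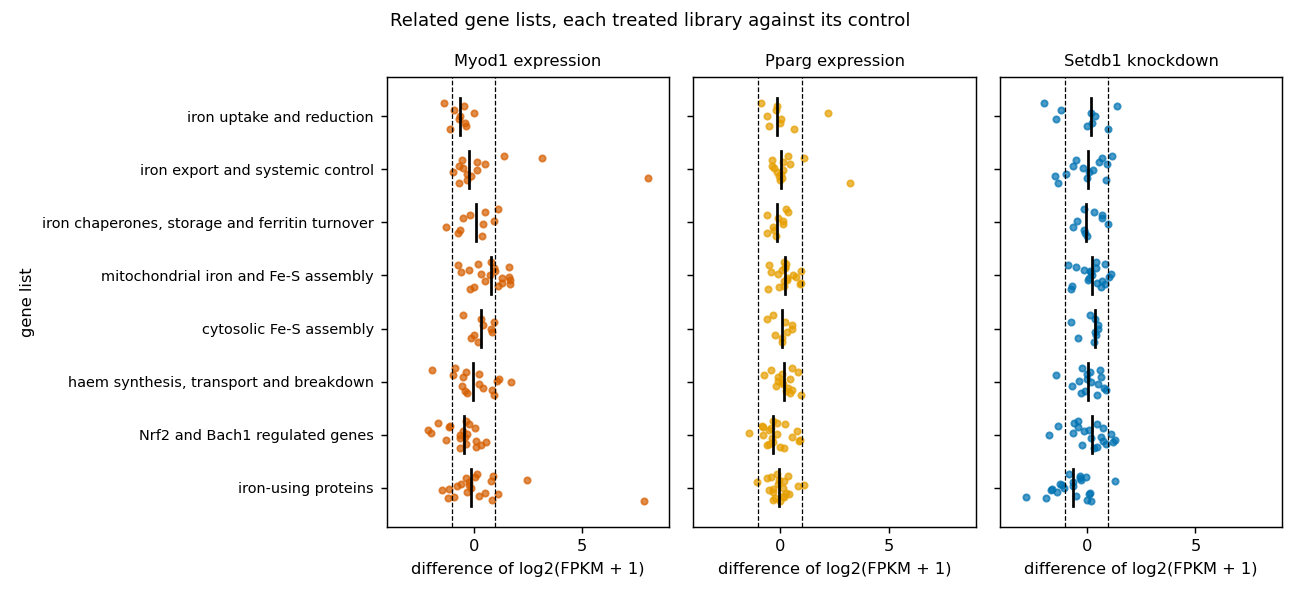
Each panel shows 1 treated library against its control, with the difference of log2(FPKM + 1) on the x axis, 1 dot per compared gene of each list on the y axis, black bars at list medians and dashed lines at the 2-fold limit. The mitochondrial list lies to the right with Myod1 expression (median 0.78), and the list of iron-using proteins lies to the left with Setdb1 knockdown (median -0.62).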

How the data were processed

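The authors deposited 1 table of FPKM values for 54699 genes in 5 libraries, and per the file headers it gives symbol, position, length and biotype. CASAVA, HISAT2, featureCounts 1.5.0-p3 and the build GRCm38 are named in the submitters' processing notes, while strandedness, shared reads and the FPKM scaling are not given in the sources used here. Of 54409 identifiers shared with GENCODE M21 (GRCm38), 98.3% had the same position. FPKM times gene length gave whole multiples (tolerance 0.01 reads) of 1 step per library for 100% of values above 0, which gave the reads behind the intervals. The number the authors divided by was 0.859 to 1.10 times those reads, so libraries had been rescaled.

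Differences are log2(FPKM + 1), called at 1 (2-fold), over genes with at least 1 FPKM in at least 1 library. With 1 library per group there is no test. The members and lists were chosen with earlier results of these data known. Named genes are the members, the targeted genes, markers, at most 4 genes per list with the largest difference past the limit, 5 genes nearest in profile to each of 2 members, and ferritin relatives. Of the 143 list entries the table lacks the symbols Mfi2, Hjv and Mfsd7b. Near copies were sought with BLASTN. Read recovery and the calling of large changes in well-covered genes were tested on simulated counts with counting noise alone. The other steps were not tested in this way. Python 3.11.15 and pandas 2.3.3 were used. There were 10 alternatives set at the start and 1, the removal of GC content and length trends (medians of 20 bins, 5 rounds, for 98.7% of genes), was chosen after seeing the data.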

Additional observations from a re-analysis of the deposited data

How the results depend on the processing

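The 6 member differences past 2-fold all kept their direction under the 9 alternatives in which a member difference was listed. Dropping the filter, filtering on mean FPKM and taking protein-coding genes alone leave these differences unchanged by construction. On the log2(FPKM + 1) scale no member passed a 4-fold limit with Myod1 expression (0 in place of 3, Slc40a1 being 4.20 times its control in FPKM), and 1 did with Setdb1 knockdown (Tfrc, in place of 3). With the other control library 1 member passed with Myod1 expression (Ftl1) and 1 with Pparg expression (Slc11a2, in place of 0), and Ftl1 alone (1) passed against both controls with Myod1 expression. With Setdb1 knockdown 3 members passed against the other control as well, Ftl1 taking the place of Ireb2. A pseudocount of 0.1, the column sum and the 75th percentile added Slc40a1 to the members lower with Setdb1 knockdown (3 lower in place of 2). A pseudocount of 0.1 put Slc40a1 past the limit between the controls (1 in place of 0). Ireb2 lost its call under the other control and without GC and length trends, and Hmox1 and Slc40a1 lost theirs with Myod1 expression under the other control. Scaling by the column sum moved the median of all genes in the Myod1 comparison by -0.28 and the 75th percentile by -0.12. The split was then 1238 higher and 1907 lower, or 1489 and 1334, in place of 1798 and 970.

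Over all genes the calls numbered 2768 with Myod1 expression, 837 with Pparg expression, 2526 with Setdb1 knockdown and 343 between the controls. A 4-fold limit left 608, 114, 310 and 36. A pseudocount of 0.1 gave 1729, 4027 and 952 in the last 3. A change against both controls left 538 with Pparg expression, and protein-coding genes alone left 151 between the controls (22 higher, 129 lower). No paired analysis was possible because each group has 1 library. Members had 159 to 108038 reads. For Fbxl5 the ratio between the controls was 1.14 with a counting interval of 1.01 to 1.28, so that difference is near counting error, and biological spread was not measured.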
